A study of Mus musculus with 8 samples.

Results

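Voltage-gated potassium (Kv) channel genes were taken as the genes whose GENCODE M21 symbol begins with Kcna, Kcnb, Kcnc, Kcnd, Kcnh or Kcnq followed by a digit. The rule matched 32 symbols, of which 30 are protein-coding genes and 2 are antisense RNAs, and 27 of them had a row in the table of 18301 genes. All 27 had at least 1 count, 23 passed the filter on low counts and were tested, and 4, with Kcna7, Kcna10 and Kcnq1 among them, did not pass it. Kcna3, Kcna5, Kcnh4 and the antisense RNAs Kcnd3os and Kcnq1ot1 were not analysed here. The counts come from ribosome footprints, the mRNA fragments that ribosomes protect, and from total RNA of mouse neurons differentiated in vitro from the CGR8 embryonic stem cell line and kept to day 8. The cells were either labelled Eif4g1/Eif4g3 double-knockout (DKO) or wildtype (WT), and the series concerns microexons of these genes, which encode scaffold proteins that bring ribosomes to capped mRNA. There were 2 libraries in each of 4 groups, namely DKO footprints, WT footprints, DKO RNA and WT RNA, and the treatment label of all 8 gives cycloheximide, which halts elongating ribosomes, at 100 µg/ml for 5 minutes. Both DKO cultures and replicate 1 of WT carry a numbered code, and replicate 2 of WT is coded WT. The sources used here do not say whether a code stands for a clone, so that p-values measure the spread between libraries, which may be partly technical.

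Kv channels are assembled from pore-forming subunits that open when the membrane is depolarised and let potassium leave the cell. They repolarise the action potential and set how often a neuron can fire. In neurons Kv1 channels (Kcna genes) act mainly in the axon, Kv2 (Kcnb) on the cell body and proximal dendrites, Kv3 (Kcnc) in cells that fire fast, Kv4 (Kcnd) in dendrites, and Kv7 (Kcnq) at the start of the axon, while the Kcnh genes encode the eag, erg and elk channels.

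The members share a selectivity filter, the stretch of the pore that lets potassium pass and holds sodium back. The coding sequence around it is shown for Kcnd2 and Kcna6, the members with the highest footprint levels, and for Kcnh2, with the 15 filter bases in capitals (GRCm38, GENCODE M21 transcripts, coding strand, 5′ to 3′). It is shown because it is what the families have in common, and because it sets the Kcnh genes apart.
Kcna6 (Kcna6-204): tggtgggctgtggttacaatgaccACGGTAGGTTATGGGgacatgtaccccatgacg
Kcnd2 (Kcnd2-201): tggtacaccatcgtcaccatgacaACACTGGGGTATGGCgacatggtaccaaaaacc
Kcnh2 (Kcnh2-201): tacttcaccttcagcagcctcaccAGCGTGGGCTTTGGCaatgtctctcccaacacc
The filter was found in the longest coding isoform of 26 members. It held a tyrosine codon in 19 and a phenylalanine codon in 7, and these 7 were the Kcnh genes. Against Kcnd2, with positions counted from 1 at the first capital, Kcna6 differed by A3G, C4G, G6A, G9T and C15G, and Kcnh2 by C2G, A3C, C4G, G9C and A11T. Of the stretches of 28 bases in coding sequence, about the length of a footprint, 3.07% of those of Kcnc1, 1.08% of those of Kcnc4, 0.77% of those of Kcna6 and 0% of those of Kcnd2 also occurred in another gene.

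Library totals ran from 10490535 to 19753419 counts for footprints and from 14762047 to 44786643 counts for RNA. Values of a gene are given as CPM, counts scaled to a library of 1000000. The labels call the cells cortical and glutamatergic. Of the cortical glutamatergic markers, Slc17a6 stood at 234 and 194 CPM in DKO footprints and 166 and 74.3 CPM in WT footprints, while Slc17a7, Tbr1, Emx1 and Fezf2 were at 1.05 CPM or below in every library. Of the 10 GABAergic markers, Gad1, Gad2, Slc32a1 and Sst were at 32.1 CPM or above in every library, while Pvalb, Dlx1, Dlx2, Dlx5 and Lhx6 were at 3.64 CPM or below. Vip stood at 43.8 and 35.6 CPM in DKO footprints and 19.3 and 4.43 CPM in WT footprints. The cells are called neurons here, without a subtype. In footprints the neuron markers summed to 4601 to 5536 CPM, the astrocyte markers to 690 to 883 CPM and the oligodendrocyte lineage markers to 400 to 707 CPM. Both glial sums were highest in WT replicate 2. The values of a gene thus cover all cells of a culture and not neurons alone. WT replicate 2 stood apart from the other 3 cultures on the first principal component of both assays (30.6 against -12.8 to -7.7 in footprints, and 25.8 against -10.7 to -5.6 in RNA). Its progenitor marker sum was 1007 CPM in footprints, against 601 to 617 CPM in the other cultures, and its fibroblast and mural sum was 828 CPM, against 174 to 543 CPM. Eif4g1 had 154 and 288 CPM in DKO footprints, against 299.8 and 263 CPM in WT footprints, and Eif4g3 had 164 and 173 CPM in DKO footprints, against 169 and 153 CPM in WT footprints. Counts over a whole gene do not show the loss of a microexon and so do not check the genotype labels.

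The genes were compared with each other per length. A length-scaled level is the count per kilobase of the longest coding sequence (footprints) or of the longest protein-coding transcript (RNA), scaled so that the 17898 genes with a coding sequence sum to 1000000. Together the channel genes had a level of 248 and 253 in DKO footprints, against 259 and 242 in WT footprints, and of 375 and 401 in DKO RNA, against 388 and 380 in WT RNA. The genotypes overlapped in both assays, and the summed level was lower in footprints than in RNA in every culture. Over all genes tested the median log2 ratio of the footprint level to the RNA level was also below 0, at -0.58 in DKO and -0.60 in WT. Kv4 held 29.2% to 31.2% of the summed footprint level and 23.5% to 24.8% of the summed RNA level, and Kv1 held 23.2% to 25.1% of the summed footprint level and 18.3% to 19.4% of the summed RNA level. The Kcnh genes held 8.8% to 10% of the summed footprint level and 13.4% to 14.4% of the summed RNA level. Kv7 held 12.8% to 13.6% of the summed footprint level and 21.1% to 22.4% of the summed RNA level. On this scale Kv1 and Kv4 took a larger share of the footprints than of the RNA in every culture. The Kcnh and Kv7 genes took a smaller one. For Kv1 and the Kcnh genes the direction depends on the length scaling, and CPM sums in WT replicate 2 go the other way. There the Kcnh genes had 88.7 of 625 CPM in footprints and 121 of 981 CPM in RNA. Kv1 had 111 CPM in footprints and 180 CPM in RNA.

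Within this order a few genes led. Kcnd2, the main subunit of the dendritic A-type current that delays firing, led the members in footprints in both genotypes, and in RNA by the longest transcript, with a length-scaled level of 53.4 ± 0.00381 in DKO and 51.7 ± 8.63 in WT footprints and 67.2 ± 3.17 in DKO and 66.8 ± 5.28 in WT RNA (SD, n = 2 each). It stood above 82.6% to 83.1% of all 17898 genes. With the same error and n, Kcna6, a Kv1 delayed rectifier, followed in footprints at 41.5 ± 0.364 in DKO and 35.6 ± 2.54 in WT, and was at 32.1 ± 2.88 in DKO and 29.7 ± 1.17 in WT in RNA. Kcnd3 was at 17.2 ± 2.17 in DKO and 21.4 ± 1.47 in WT footprints. With transcript lengths weighted by counts Kcnd2 was the second of the members in RNA, at 56.6 in DKO and 54.6 in WT, so that its place in RNA depends on which isoform length is used. At the other end Kcnh3 was at 0.822 ± 0.169 in DKO RNA and 0.826 ± 0.0598 in WT RNA, the lowest of the tested members.

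Of the Kv1 genes, Kcna6 had 81.9 and 81.3 CPM in DKO footprints, against 74.99 and 65.4 CPM in WT footprints, and 69.3 and 76.96 CPM in DKO RNA, against 70.9 and 64.7 CPM in WT RNA. Kcna2, an axonal subunit that sits beside the node of Ranvier, had 16.1 and 21.8 CPM in DKO footprints, against 22.6 and 22.4 CPM in WT footprints, and 64.3 and 65.6 CPM in DKO RNA, against 68.4 and 70.3 CPM in WT RNA. Kcna4, which forms a fast inactivating channel, had 16.7 and 16.9 CPM in DKO footprints, against 18.03 and 14.7 CPM in WT footprints, and 30.7 and 34.95 CPM in DKO RNA, against 36.8 and 32.3 CPM in WT RNA. Kcna2 had more CPM in RNA than in footprints in every culture. For Kcna6 both DKO footprint values were above both DKO RNA values, and the assays overlapped in WT. Kcna2 lay lower in both DKO libraries of each assay, Kcna6 lay higher in both DKO footprint libraries, and the genotypes overlapped for Kcna4. Kcna1, the usual partner of Kcna2 in the axon and a cause of episodic ataxia when mutated in humans, had 8.43 and 6.62 CPM in DKO footprints, against 6.54 and 8.07 CPM in WT footprints, and 11.7 and 13.97 CPM in DKO RNA, against 12.6 and 12.2 CPM in WT RNA. For Kcna1 the genotypes overlapped in both assays. Kcna7 had at most 4 counts and Kcna10 at most 3 counts in any footprint library, and neither was tested.

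Of the Kv2 genes, Kcnb2, a delayed rectifier, had 19.4 and 22.1 CPM in DKO footprints, against 24.9 and 22.4 CPM in WT footprints, and 62.4 and 54.9 CPM in DKO RNA, against 56.9 and 58.7 CPM in WT RNA. Every footprint value of Kcnb2 was below every RNA value. Kcnb2 lay lower in both DKO footprint libraries, and the genotypes overlapped in RNA.

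Of the Kv3 genes, Kcnc1, which lets neurons fire at high rates, had 32.4 and 27.96 CPM in DKO footprints, against 34.8 and 32.8 CPM in WT footprints, and 27.5 and 31.03 CPM in DKO RNA, against 32.3 and 31.7 CPM in WT RNA. Kcnc2, found with Kcnc1 in fast-spiking cells, had 14.3 and 12.4 CPM in DKO footprints, against 13.9 and 13.1 CPM in WT footprints, and 30.7 and 30.3 CPM in DKO RNA, against 29.1 and 30.2 CPM in WT RNA. Kcnc1 lay lower in both DKO libraries of each assay, and Kcnc2 lay higher in both DKO RNA libraries. Kcnc4, which gives an inactivating current, had 30.7 and 26.9 CPM in DKO footprints, against 29.5 and 27.3 CPM in WT footprints, and 26.7 and 25.3 CPM in DKO RNA, against 27.7 and 27.1 CPM in WT RNA, lower in both DKO RNA libraries and overlapping in footprints.

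Of the Kv4 genes, Kcnd2 had 124.7 and 125.2 CPM in DKO footprints, against 138 and 105 CPM in WT footprints, and 132 and 138 CPM in DKO RNA, against 145 and 124.7 CPM in WT RNA. Kcnd3, the other abundant A-type subunit, had 38.1 and 45.8 CPM in DKO footprints, against 50.7 and 53.9 CPM in WT footprints, and 61.6 and 68.3 CPM in DKO RNA, against 68.6 and 77.4 CPM in WT RNA. Kcnd2 overlapped between the genotypes in each assay, and Kcnd3 lay lower in both DKO libraries of each assay. Kcnd1, the remaining A-type subunit, had 8.01 and 8.39 CPM in DKO footprints, against 6.65 and 6.98 CPM in WT footprints, and 3.18 and 3.798 CPM in DKO RNA, against 3.13 and 3.17 CPM in WT RNA, with both DKO values the higher in each assay. It had more CPM in footprints than in RNA in every culture.

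Among the Kcnh genes, Kcnh2, the erg channel that repolarises the heart, had 40.7 and 47.5 CPM in DKO footprints, against 37.97 and 36.7 CPM in WT footprints, and 31.2 and 36.5 CPM in DKO RNA, against 32.7 and 30.6 CPM in WT RNA. Kcnh7, another neuronal erg gene, had 17.8 and 17.5 CPM in DKO footprints, against 19.4 and 19.8 CPM in WT footprints, and 44.7 and 42.5 CPM in DKO RNA, against 43.7 and 51.2 CPM in WT RNA. Kcnh1, the founding eag channel, had 13.2 and 14.7 CPM in DKO footprints, against 13.7 and 9.52 CPM in WT footprints, and 18 and 22.6 CPM in DKO RNA, against 20.2 and 14.9 CPM in WT RNA. Its WT replicate 2 values were the lowest of each assay. Kcnh2 lay higher in both DKO footprint libraries and Kcnh7 lay lower in both. Kcnh6, the remaining erg gene, had 10.4 and 10.4 CPM in DKO footprints, against 8.79 and 8.43 CPM in WT footprints, and 10.04 and 9.53 CPM in DKO RNA, against 7.22 and 7.45 CPM in WT RNA, with the DKO values above the WT values in each assay. Kcnh8, an elk channel, had 4.68 and 4.85 CPM in DKO footprints, against 6.197 and 4.65 CPM in WT footprints, and 7.09 and 7.42 CPM in DKO RNA, against 6.97 and 6.795 CPM in WT RNA. Kcnh3, another elk channel, had 0.833 and 0.473 CPM in DKO footprints, against 0.6197 and 1.02 CPM in WT footprints, and 1.02 and 1.34 CPM in DKO RNA, against 1.28 and 1.11 CPM in WT RNA. Its footprints rested on 8 to 14 counts a library, its DKO footprint replicates differed by 0.82 on the log2 scale, and the genotypes overlapped. Exons of Kcnh3 overlap Mcrs1 and those of Kcnh7 overlap Gca on the opposite strand, and reads of such a pair cannot be told apart if strand was not used in counting. The eag gene Kcnh5 ranged from 7.74 to 8.85 CPM in footprints and 9.35 to 12.3 CPM in RNA.

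Of the Kv7 genes, Kcnq3, a subunit of the M-channel that dampens repetitive firing, had 24.5 and 25 CPM in DKO footprints, against 27.4 and 27.4 CPM in WT footprints, and 109 and 103 CPM in DKO RNA, against 107 and 101.3 CPM in WT RNA. Every footprint value of Kcnq3 was below every RNA value, and it lay lower in both DKO footprint libraries. Per length Kcnq3 was at 7.62 ± 0.0937 in DKO and 8.42 ± 0.202 in WT footprints and 22.95 ± 0.714 in DKO and 22.6 ± 0.325 in WT RNA (level, SD, n = 2 each). Kcnq5, a further M-current subunit, had 15.1 and 11.9 CPM in DKO footprints, against 12.8 and 10.03 CPM in WT footprints, and 25.4 and 22.3 CPM in DKO RNA, against 25.2 and 21.3 CPM in WT RNA. Kcnq1, known from the heart, had 2 counts in 1 DKO footprint library and 0 in the other 3 footprint libraries, where 3 counts, the limit that a count of 0 allows, would be 0.169 to 0.312 CPM.

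**Figure D1:**
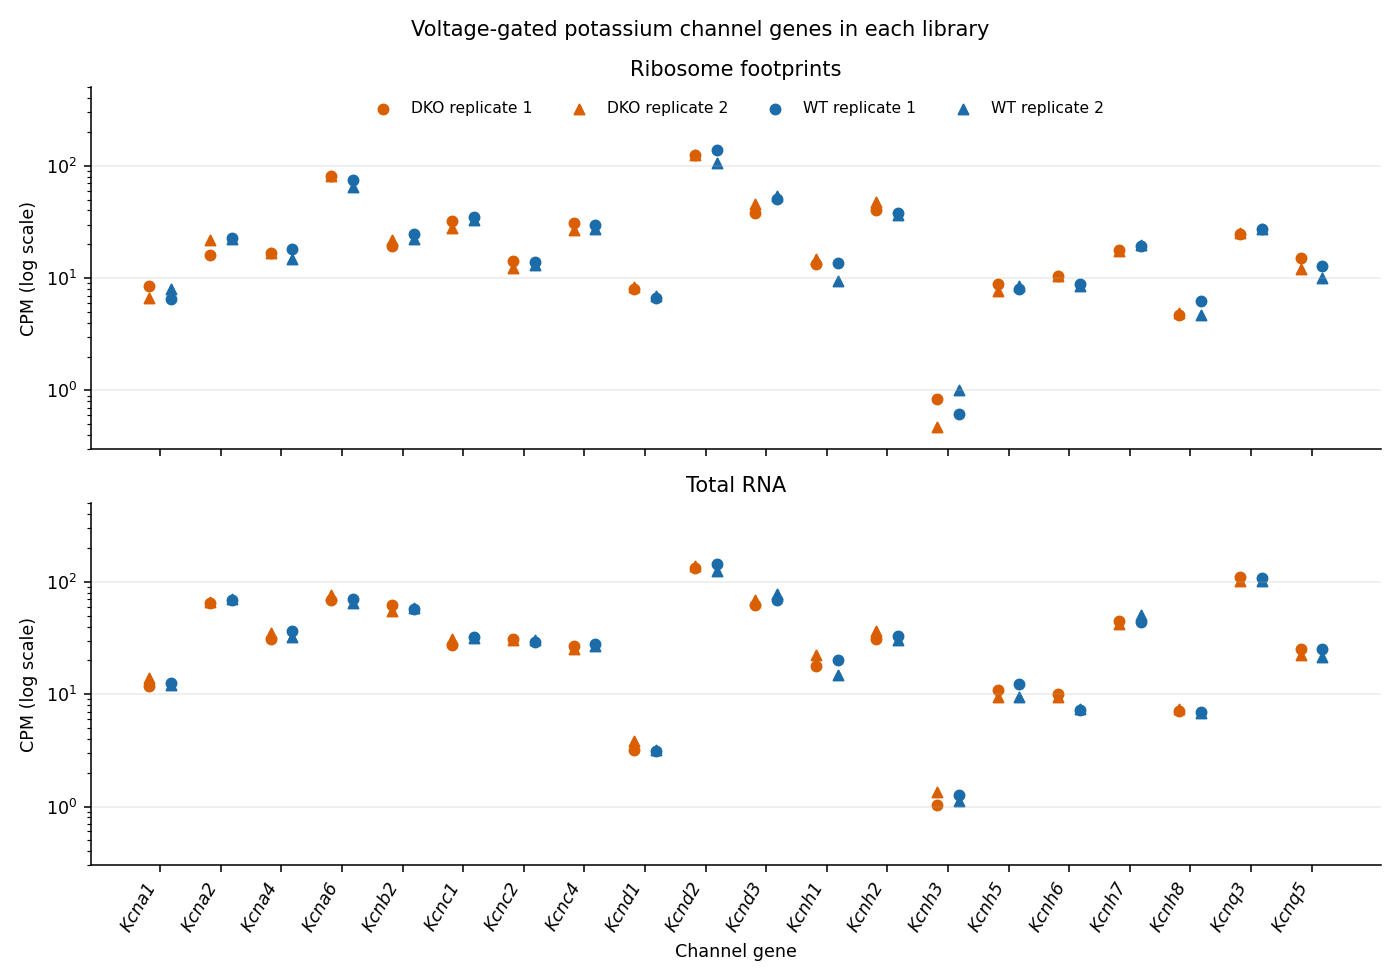
CPM (y axis, log scale) of 20 of the tested channel genes (x axis) in ribosome footprints (upper panel) and total RNA (lower panel), with 1 point for each library, DKO left of WT. Heights compare the libraries of a gene and not genes of different length: Kcnq3 stands at 24.5 to 27.4 CPM in footprints and 101.3 to 109 CPM in RNA, and Kcnd1 at 6.65 to 8.39 CPM in footprints and 3.13 to 3.798 CPM in RNA.

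The next comparison set footprints against RNA within each genotype, which asks how many ribosomes a gene had for its RNA. Kcnd1 had more footprints than its RNA would give at the scale of all genes, and most other members had fewer. The log2 difference of Kcnd1 was 1.25 ± 0.21 (adjusted p = 0.000294) in DKO and 1.11 ± 0.22 (adjusted p = 0.000831) in WT. At the other end Kcnq3 was at -2.10 ± 0.09 (adjusted p = 1.93e-08) in DKO and -1.93 ± 0.09 (adjusted p = 2.55e-08) in WT. The same was measured for Kcna2, at -1.76 ± 0.12 in DKO and -1.63 ± 0.12 in WT, and for Kcnb2, at -1.50 ± 0.11 in DKO and -1.29 ± 0.11 in WT, with adjusted p-values of 2.79e-07 in DKO and 4.14e-07 in WT for Kcna2 and of 4.29e-07 in DKO and 1.13e-06 in WT for Kcnb2. These values are from edgeR's quasi-likelihood test with Benjamini-Hochberg adjustment over 12898 genes, and ± is the standard error. Both footprint libraries lay on the stated side of both RNA libraries of their genotype for each of these 4 genes.

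A gene was called where its adjusted p was under 0.05. Of the 23 tested members, 3 were called higher in DKO footprints than in DKO RNA, where 32.1% of all genes tested were called higher, and 13 were called lower, where 33.3% of all genes were. In WT 2 were called higher, against 31.4% of all genes, and 11 lower, against 33.8%. In either direction 16 members were called in DKO, against 65.4% of all genes, and 13 in WT, against 65.1%, and the same numbers had an unadjusted p under 0.05, against 68.3% of all genes in DKO and 68.0% in WT. The median log2 difference of the members was -0.60 in DKO and -0.48 in WT, and that of all genes tested was -0.01 in DKO and -0.02 in WT. By family, the 3 Kv7 genes tested were called lower in both genotypes, with Kcnq5 at -0.84 ± 0.16 in DKO and -1.02 ± 0.17 in WT. Of the 4 Kv1 genes, 3 were called lower in both genotypes and Kcna6, at 0.16 ± 0.10 in DKO and 0.05 ± 0.10 in WT, was not called in either. In Kv3, Kcnc2 was called lower, at -1.20 ± 0.12 in DKO and -1.14 ± 0.12 in WT, while Kcnc1, at 0.04 ± 0.11 in DKO and 0.08 ± 0.11 in WT, was not called. Kcnd3 was called lower at -0.62 ± 0.11 in DKO and -0.48 ± 0.11 in WT, and Kcnd2 was not called, at -0.11 ± 0.13 in DKO and -0.14 ± 0.13 in WT. Among the 7 Kcnh genes 3 were called lower in DKO (Kcnh1, Kcnh7 and Kcnh8) and 2 in WT (Kcnh1 and Kcnh7). Kcnh2 was called higher in DKO at 0.39 ± 0.11 (adjusted p = 0.0092) and not in WT at 0.24 ± 0.11 (adjusted p = 0.086), with edgeR. The difference between the genotypes was not called either, at 0.15 ± 0.16. The call of Kcnh2 in DKO was lost without replicate 2 of the DKO footprints (log2 0.27, adjusted p = 0.112), without replicate 1 of the DKO RNA (0.28, adjusted p = 0.109), without both libraries of DKO replicate 1 (0.38, adjusted p = 0.0575) or of DKO replicate 2 (0.38, adjusted p = 0.0616), and with scaling within each assay (0.16, adjusted p = 0.23), all with edgeR. In WT it was called with the culture as a replicate block (0.24, adjusted p = 0.033) and with no filter (0.30, adjusted p = 0.0484). Scaling within each assay moves the median of all genes to -0.24 in DKO and -0.25 in WT, with 2 members then called higher and 15 lower in each genotype. Over the 12898 genes tested, 8621 were then called in either direction in DKO and 8574 in WT.

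Footprints lie in coding sequence and RNA reads over the whole transcript, so the difference was set beside the share of the transcript that codes. The members with the lowest footprints relative to RNA had long transcripts with little coding sequence. Kcna2 codes in 12.9% of its 11582-nt transcript, Kcnb2 in 18.3% of 14845 nt and Kcnq3 in 22.1% of 11824 nt. The median share was 38.2% in the members and 50.4% in all genes. Across the 23 members Spearman's rho between the coding share and the log2 difference was 0.475 in DKO and 0.518 in WT, and across 12671 genes it was 0.212 in DKO and 0.215 in WT. These are descriptions across genes that share the same libraries, and transcript length enters both measures. Per length, the log2 ratio of the footprint level to the RNA level was above 0 in 4 of 23 members in each genotype. Kcnd1 was at 1.0 in DKO and 0.88 in WT, Kcnc1 at 0.52 in DKO and 0.55 in WT, and Kcna6 at 0.37 in DKO and 0.26 in WT. The median over the members was -1.01 in DKO and -1.05 in WT, below the medians of all genes given above. On this scale Kcnh3, with a coding share of 88.8%, was the lowest at -2.36 in DKO and -2.04 in WT, and Kcna2 stood at -0.49 in DKO and -0.34 in WT, above the median of the members. Kcnb2 was also above that median, at -0.72 in DKO and -0.51 in WT. Kcnq3 stayed below it, at -1.59 in DKO and -1.42 in WT.

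**Figure D2:**
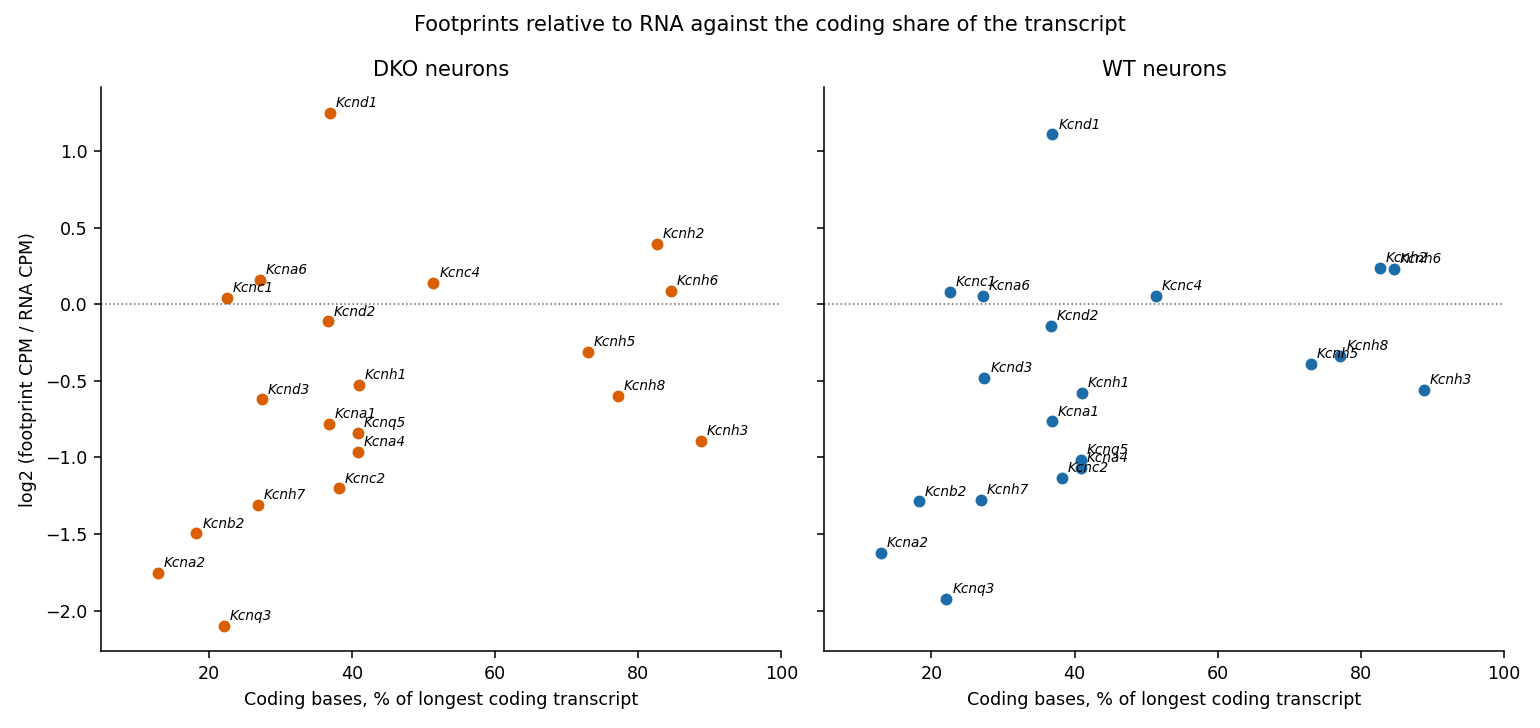
Log2 difference of footprints minus RNA (y axis) against the coding bases as a percentage of the longest coding transcript (x axis), with 1 point for each of 20 of the tested genes, in DKO (left) and WT (right). Kcnq3, Kcna2 and Kcnb2 lie at the lower left in both panels, and Kcnd1 lies highest at a coding share of 36.9%.

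The comparison of the genotypes asked whether the channel genes had more or fewer footprints, or more or less RNA, in DKO neurons. The levels of the Kv genes were close in the 2 genotypes, and none was called in either assay. In footprints 0 of 23 passed an adjusted p of 0.05 (edgeR's quasi-likelihood test, smallest adjusted p = 0.836), and 1 of 12898 genes, 0.00775%, was called over the whole table. In RNA 0 of 23 passed (smallest adjusted p = 0.851), and 2 genes, 0.0155%, were called in all. At an unadjusted p under 0.05 there were 2 members in footprints, where 5.62% of all genes stood, and 1 in RNA, where 5.57% did. DESeq2 and limma-voom also called 0 members in each assay. Fewer cells of a type and less RNA per cell cannot be told apart in such bulk libraries.

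Kcnd3 was among the 2 members of the lowest p in footprints. Its log2 fold change was -0.31 ± 0.12 (95% interval -0.56 to -0.06, unadjusted p = 0.0197, adjusted p = 0.836) with edgeR. Both DKO libraries lay below both WT libraries, and the RNA value had the same sign, at -0.17 ± 0.11. In RNA Kcnh6 had the lowest p, at 0.42 ± 0.15 (95% interval 0.08 to 0.75, unadjusted p = 0.0197, adjusted p = 0.851) with edgeR, and its footprints were at 0.27 ± 0.16. Kcnd1 stood at 0.27 ± 0.21 in footprints and 0.13 ± 0.22 in RNA, and Kcnh1 at 0.26 ± 0.21 in footprints and 0.21 ± 0.20 in RNA. Kcnh3 was the lowest in footprints at -0.37 ± 0.51 (95% interval -1.49 to 0.74), an interval that reaches far to both sides of 0, and Kcnc1 was at -0.14 ± 0.11 in RNA. The leading gene Kcnd2 was at 0.04 ± 0.13 (95% interval -0.24 to 0.32) in footprints and 0.01 ± 0.13 (95% interval -0.27 to 0.28) in RNA.

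Both DKO libraries lay above both WT libraries for 4 of 23 members in footprints, against 16.3% of all genes, and below both for 7, against 16.2%. In RNA 5 lay above, against 19.6% of all genes, and 5 below, against 18.9%. Those above in footprints were Kcna6, Kcnd1, Kcnh2 and Kcnh6, and those below included Kcna2, Kcnb2, Kcnc1, Kcnd3, Kcnh7 and Kcnq3. Kcnd1 and Kcnh6 lay above in both assays, and Kcna2, Kcnc1 and Kcnd3 below in both. The median log2 fold change of the members was 0.01 in footprints and 0.03 in RNA, and over all genes it was 0.00 in each. The 95% interval of the fold change lay within 1.5-fold in either direction for 16 of 23 members in footprints and 19 of 23 in RNA, and reached beyond it in footprints for 7, Kcnd1, Kcnh1, Kcnh3, Kcnh6, Kcnh8 and Kcnq5 among them. WT replicate 2, the culture that stood apart, entered all of these values. In footprints the 10 cortical glutamatergic markers summed to 213 to 253 CPM in DKO and 88.8 to 184 CPM in WT, and the 10 GABAergic markers to 766 to 799.5 CPM in DKO and 662 to 808 CPM in WT, with none at 0 in every library. Their part in the fold changes was not tested. Without both of its libraries 0 members were called in either assay, and the median of the members was then -0.07 in footprints and -0.02 in RNA, against -0.01 and 0.00 over all genes. Without both libraries of WT replicate 1, WT replicate 2 is the lone WT culture and is assumed to vary like the other groups. In that fit 508 genes were called in footprints and 381 in RNA.

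**Figure D3:**
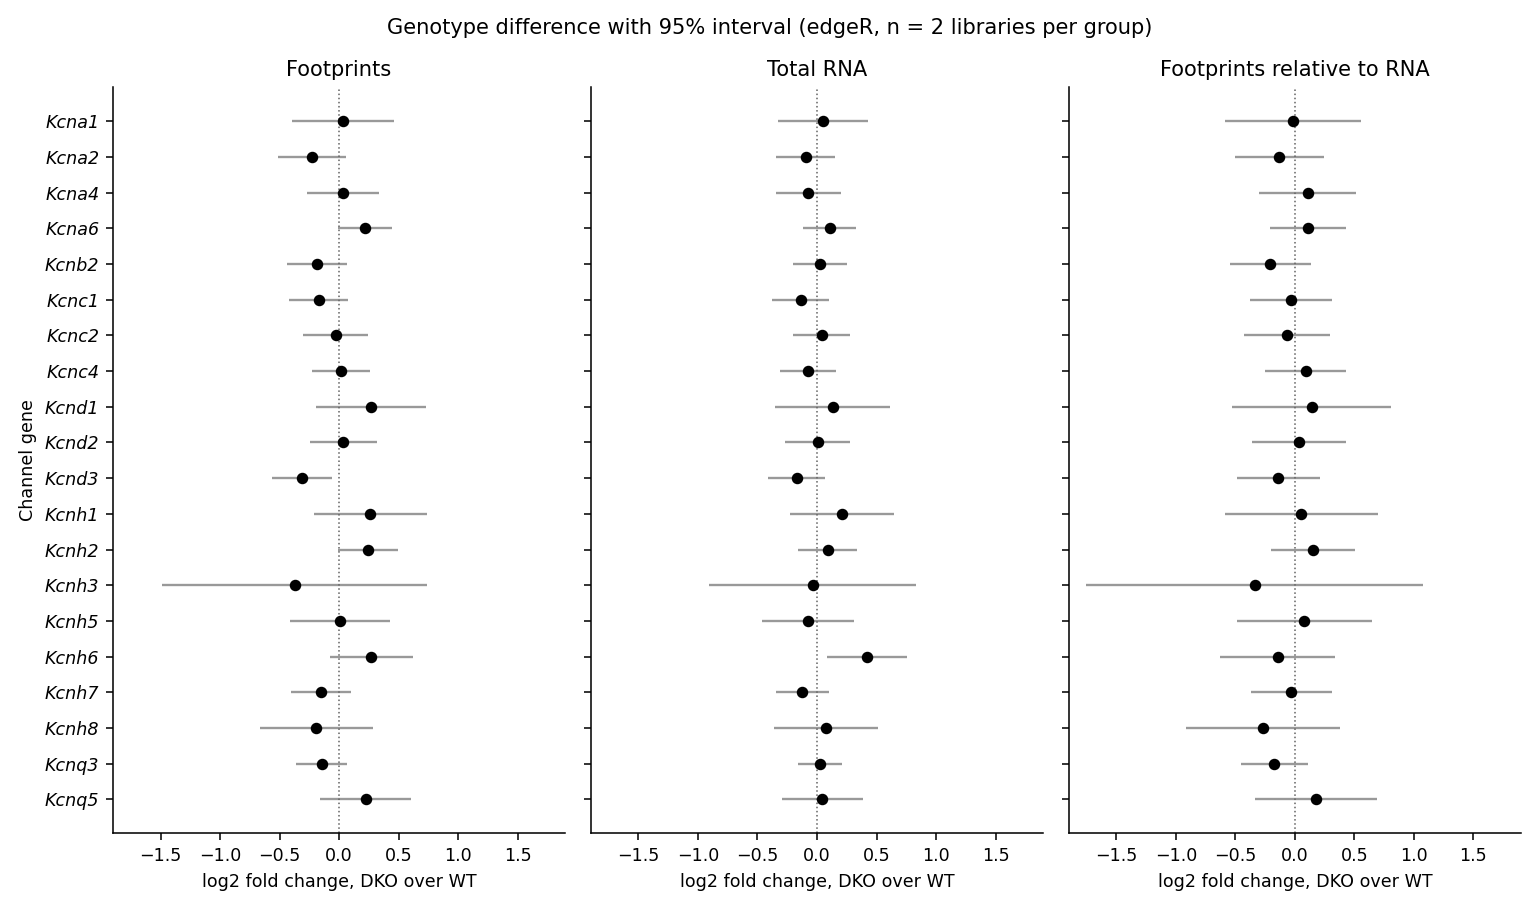
Log2 fold change of DKO over WT (x axis) of 20 of the tested channel genes (y axis) in footprints, in total RNA and in footprints relative to RNA, with the 95% interval from edgeR (n = 2 libraries per group). Intervals cross 0 for all genes in the translational efficiency panel and for most in the others: those of Kcnd3 in footprints and of Kcnh6 in RNA do not, and Kcnh3 has the widest interval in each.

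Translational efficiency, the footprints relative to RNA in DKO minus the same in WT, was tested as an interaction. With edgeR 0 of 23 members were called, where 0.0% of all genes were, and 0 had an unadjusted p under 0.05, where 0.853% of all genes did. DESeq2 and limma-voom also called 0 members. The members ranged from -0.34 ± 0.65 for Kcnh3 and -0.27 ± 0.30 for Kcnh8 to 0.15 ± 0.16 for Kcnh2 and 0.18 ± 0.23 for Kcnq5. Their median was -0.03, and that of all genes was 0.01. The 95% interval lay within 1.5-fold for 15 of 23 members.

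Transcript isoforms were described for the 18 genes with at least 100 counts in every library, of which 11 had more than 1 transcript in the table. The shares are estimates by kallisto and were not tested, and the isoforms of a gene share most of their coding sequence. Since footprints lie in coding sequence and RNA reads over the whole transcript, the shares of the 2 assays rest on different parts of an isoform. In Kcnc1 and Kcnd3 the isoform that took most of the footprints was not the one that took most of the RNA. The coding sequence where the isoforms part is shown for these 2 genes, with capitals from the base at which the isoforms stop being the same (GRCm38, GENCODE M21, coding strand).
Kcnc1-203: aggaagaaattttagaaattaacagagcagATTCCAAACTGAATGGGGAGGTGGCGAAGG
Kcnc1-201: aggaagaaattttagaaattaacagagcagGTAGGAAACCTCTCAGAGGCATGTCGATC
Kcnd3-201: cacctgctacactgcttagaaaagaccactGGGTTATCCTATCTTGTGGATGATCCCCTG
Kcnd3-202: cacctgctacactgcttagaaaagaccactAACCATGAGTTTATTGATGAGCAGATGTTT
Kcnc1-203 and Kcnc1-201 share their first 1504 coding bases and end in different C termini, with 251 bases of its own in Kcnc1-203 and 29 in Kcnc1-201. Kcnc1-203, of 3156 nt, held 79.1% and 72.1% of the counts in DKO footprints and 72.4% and 73.2% in WT footprints, against 21.2% and 18.6% in DKO RNA and 21.9% and 24.4% in WT RNA. Kcnc1-201, of 7760 nt, held 19% and 23.9% of the counts in DKO footprints and 19.3% and 19.5% in WT footprints, against 77.3% and 79.5% in DKO RNA and 78.1% and 75.3% in WT RNA. Kcnd3-201 carries 57 coding bases that Kcnd3-202 lacks. Kcnd3-201, of 2102 nt, held 82% and 73% of the counts in DKO footprints and 79.3% and 79.5% in WT footprints, against 1.1% and 1.2% in DKO RNA and 0.4% and 1.3% in WT RNA. Kcnd3-202, of 7169 nt, held 11.5% and 12.8% of the counts in DKO footprints and 12.2% and 14% in WT footprints, against 95.5% and 94.4% in DKO RNA and 96.4% and 95.1% in WT RNA. The genotypes overlapped in each of these footprint shares, and the assays did not overlap in any of the 4 isoforms. The isoform with more of the footprints was in both genes the one with less noncoding sequence. Kcnc1-203 has 1755 coding bases and Kcnc1-201 has 1533, and Kcnd3-201 has 1965 and Kcnd3-202 has 1908, with 0 of its own. The part of these lengths in the estimated shares was not tested.

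The isoform shares of Kcnh6, Kcnq3 and Kcnh7 also differed between the assays without overlap. Kcnh6-204, annotated as a target of nonsense-mediated decay, held 64% and 75% of the counts in DKO footprints and 73.7% and 79.3% in WT footprints, against 11.8% and 10.4% in DKO RNA and 0% and 13.8% in WT RNA. Kcnq3-202, a 666-nt processed transcript with no annotated coding sequence, held 30.2% and 25.3% of the counts in DKO footprints and 30.8% and 28.9% in WT footprints, against 4.4% and 4.2% in DKO RNA and 5.2% and 4.2% in WT RNA. Kcnh7-203, a shorter coding isoform, held 31% and 42.2% of the counts in DKO footprints and 40.4% and 38.8% in WT footprints, against 8.4% and 4.5% in DKO RNA and 12.6% and 10.1% in WT RNA. The shares of Kcna6 ranged widely between replicates of a group. Its transcript Kcna6-201, annotated as a target of nonsense-mediated decay, has 1587 coding bases, as many as the protein-coding Kcna6-204. Kcna6-201 held 43.7% and 86% of the counts in DKO footprints and 60.6% and 85.6% in WT footprints, against 69.5% and 91.4% in DKO RNA and 61.6% and 31% in WT RNA.

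**Figure D4:**
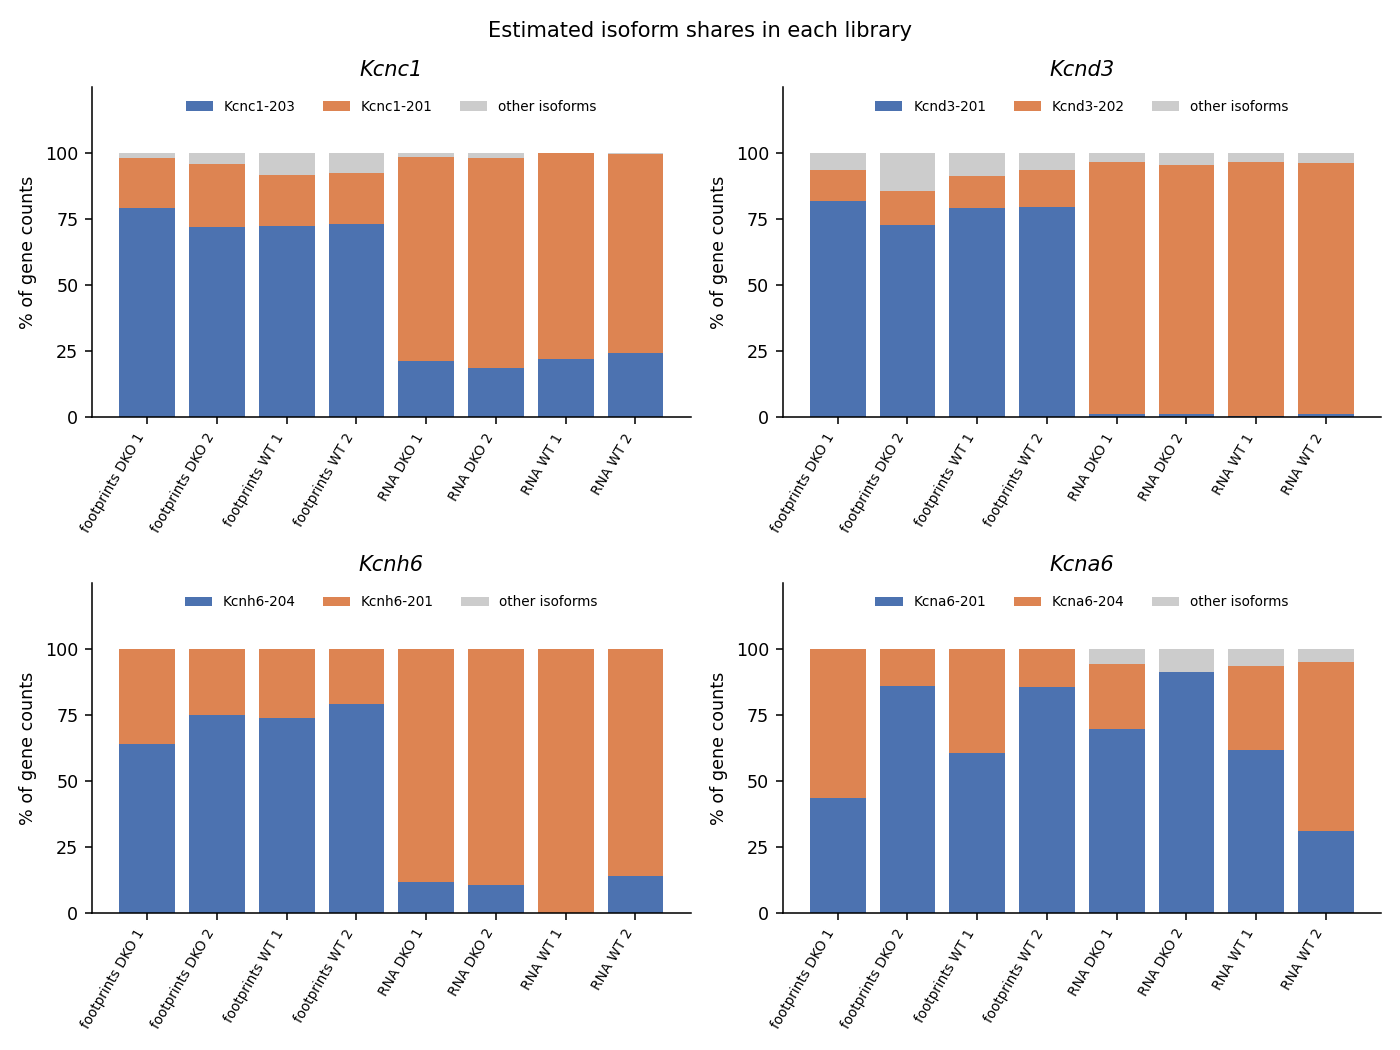
Estimated isoform shares (y axis, percent of the counts of a gene) in each of the 8 libraries (x axis) for Kcnc1, Kcnd3, Kcnh6 and Kcna6. Kcnc1-203 against Kcnc1-201, Kcnd3-201 against Kcnd3-202 and Kcnh6-204 against Kcnh6-201 hold the larger share in all 4 footprint libraries and the smaller share in all 4 RNA libraries, and in Kcna6 the shares vary among libraries of the same group.

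Subunits and proteins that work with Kv channels were taken from a list of 37 genes, of which 34 were in the table and 26 were tested. In the genotype contrasts of both assays and of translational efficiency, 0 were called with edgeR, DESeq2 or limma-voom. An unadjusted p under 0.05 was reached by 0 of 26 partners in footprints, against 5.62% of all genes, by 6 in RNA, against 5.57%, and by 1 for translational efficiency, against 0.853%. Their median log2 fold change was 0.10 in footprints and 0.02 in RNA. In RNA Kcnip2, a calcium-binding partner of Kv4 channels, had 7.72 and 6.72 CPM in DKO RNA, against 5.05 and 4.695 CPM in WT RNA, a log2 fold change of 0.58 ± 0.21 (unadjusted p = 0.0165, adjusted p = 0.851) with edgeR. Its footprints were at 4.996 and 5.56 CPM in DKO footprints, against 6.197 and 5.09 CPM in WT footprints, a log2 fold change of -0.10 ± 0.22, and its translational efficiency was at -0.67 ± 0.30 (unadjusted p = 0.0455, adjusted p = 1). Dlg4, the postsynaptic scaffold that binds Kv1 channels, stood at 0.33 ± 0.13 (unadjusted p = 0.0235, adjusted p = 0.851) in RNA, with 181 and 175 CPM in DKO RNA, against 158 and 126 CPM in WT RNA, and at -0.15 ± 0.18 in translational efficiency. Lower values in RNA were those of Lgi1, a secreted protein linked to Kv1 channels, at -0.32 ± 0.13, and of the silent subunit Kcnv1, at -0.27 ± 0.12. In footprints the lowest p-values in each direction belonged to the silent subunit Kcng3 at 0.64 ± 0.31, the cytoplasmic beta subunit Kcnab1 at 0.33 ± 0.17, Kcnip3 at -0.18 ± 0.18 and Kcnip2. In translational efficiency Kcnv1, at 0.30 ± 0.17, and the axonal adhesion molecule Cntn2, at 0.28 ± 0.18, had the lowest p-values among positive values. For footprints minus RNA, 6 of 26 partners were called higher in DKO, where 32.1% of all genes were, and 7 lower, where 33.3% were. In WT 5 were called higher, against 31.4% of all genes, and 8 lower, against 33.8%.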

How the data were processed

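The deposited file holds kallisto's estimated counts for each Ensembl transcript, written as whole numbers, so none was rounded. The submitters' processing notes also list FastQC, Trimmomatic and Bowtie, and give no versions. Build, transcript set, settings and strand use were not stated there. kallisto divides reads among isoforms and similar genes, so isoform counts are less certain than gene sums.

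Of 60528 transcripts, 60444 matched GENCODE M21 (GRCm38) and were summed to 18301 genes, and 84 were left out. Columns were matched to samples by assay and index sequence. CPM use TMM-scaled library sizes. The 12898 genes that passed filterByExpr (minimum count 10) were fitted over all 8 libraries with edgeR 4.0.16 (R 4.3.3, limma 3.58.1), with 1 mean per group, 4 residual degrees of freedom and Benjamini-Hochberg adjustment. The median standard error was 0.13 for footprints, 0.12 for RNA and 0.18 for translational efficiency (log2). The fit was tested on simulated data, drawn as independent libraries with the spread that the fit itself had estimated. That test did not cover footprint and RNA libraries of a shared culture, or a culture that stands apart. The limit for a count of 0 covers counting error only.

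Members and lists were chosen with earlier results of these data known. Named members are those with a mean of at least 10 CPM and those at either end of a contrast, 3 for footprints, RNA and footprints minus RNA in WT and 2 for translational efficiency. Results of some members are not reported here, though counts and medians cover all members tested. Named partners are the 2 of lowest p in each direction. Footprint and RNA libraries were paired within a genotype by replicate number, since the code of DKO replicate 2 is spelled differently in the assays, and their replicate differences correlated at 0.216 in DKO and 0.658 in WT. DKO and WT share only numbers. Alternatives were other scalings (RLE, TMM per assay), other filters, DESeq2 1.42.0, limma-voom, smaller fits, replicate blocks, other lengths, and leaving out libraries or cultures.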

Additional observations from a re-analysis of the deposited data

How the results depend on the processing

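The number of members called in each genotype contrast was 0 under every alternative run, and for footprints minus RNA it ranged from 11 to 17 in DKO and from 12 to 17 in WT. These runs tested 22 to 27 members. The main fit called 16 of 23 members in DKO, against 65.4% of all genes, and 13 in WT, against 65.1%. With 2 libraries a group, Kcnh3, at 8 to 14 footprint counts, set the limit of depth. Its log2 fold change in footprints ranged from -0.76 to 0.048 when single libraries were left out and was 0.045 without DKO culture 2. In translational efficiency it ranged from -0.73 to 0.084 for single libraries, with 0.035 without replicate 2 of the WT footprints, and was 0.26 without DKO culture 2 and 0.143 without WT culture 2. Kcnh1 in RNA ranged from 0.00 to 0.48 for single libraries and was -0.009 without WT culture 2. The cause was not tested. With the culture as a replicate block, 16 members were called for footprints minus RNA in DKO, 15 in WT and 0 for translational efficiency. Of all 12898 genes, 9461 were called for footprints minus RNA in DKO and 9450 in WT with that block. The footprint and RNA genotype contrasts used the replicate number as the block instead, and 0 members were called in either. A block with crossed numbers, chosen after seeing the data because DKO and WT libraries of the same number correlated at -0.143 in footprints and -0.103 in RNA, called 0 members, with 3 genes called in footprints and 7 in RNA over the whole table. Of the length-scaled WT levels recomputed under other length choices, 53 moved by more than the spread between replicates and 55 did not. Footprint levels use the coding length, which the longest transcript of any type and the count-weighted length leave as it is. Under these choices a footprint level could not move, and Kcnd2 stayed at 51.7 in WT. The 2 counts are therefore no measure of how stable the levels are.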
